A study of Homo sapiens with 10 samples.

Results

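H1 human embryonic stem cells with a knockdown of KDM1A were compared directly with H1 cells with a knockdown of MAFK, so that differences between the knockdowns could be read without passing through the control. The comparison holds 4 of the 10 libraries of the series, all those whose labels name an shRNA against KDM1A (shKDM1A, 2 libraries) or MAFK (shMAFK, 2 libraries). H1 is an established line derived from a human embryo, labelled as wild type and grown in mTeSR1 on Matrigel. All groups, the control included, received packaged virus made in 293T cells and then puromycin, and the control virus carried an shRNA against luciferase (shLUC, 2 libraries), a gene that human cells lack. The other libraries, with shE2F6 and shSMARCA4 (2 each), entered the shared estimate of the spread. Per the series' design text the duplicates are biological. The labels give neither the hairpin sequences nor the number of hairpins per gene, so a result of the hairpin and a result of its target cannot be told apart.

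KDM1A (LSD1) removes methyl groups from lysine 4 of histone H3 and works mostly inside the CoREST complex with the histone deacetylases HDAC1 and HDAC2, where it helps to keep genes of other lineages and of the germline silent. MAFK is a small MAF protein. It has a leucine zipper and a DNA binding domain but no activation domain of its own, and it pairs with CNC factors such as NFE2L2 (NRF2), which activate antioxidant genes, or BACH1 and BACH2, which repress through the same sites. Both factors are expressed in pluripotent cells.

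The table held 14785 rows, of which 13808 were genes, 973 were subfamilies of transposable elements (TEs) and 4 were transfer RNAs. Values are the authors' normalized tag counts, whole numbers with the same median of 594 in every library, and their read depth is unknown. Differences are on the log2(value + 1) scale throughout, shKDM1A minus shMAFK unless stated, with the standard error (SE) of the fit. A row passed the test where the adjusted p of limma (Benjamini-Hochberg over all rows, n = 2 per group) was under 0.05. Groups of 2 libraries are said not to overlap where the lowest value of one lies above the highest of the other, which 39.2% of all rows met in this comparison.

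1 of the 4 libraries stood apart. Against the shMAFK mean, 859 rows were at least 2-fold higher and 945 at least 2-fold lower in shKDM1A replicate 1, but only 179 and 125 in shKDM1A replicate 2. Both libraries passed that fold for 105 higher and 53 lower rows, which is 12.2% and 5.61% of the rows of replicate 1 and 58.7% and 42.4% of those of replicate 2. The replicate SD was 0.53 on the log2 scale in shKDM1A and 0.26 in shMAFK, against 0.27 to 0.33 in the other 3 groups. The fit pools the spread of all groups, so its SEs do not carry the wider spread of shKDM1A in full. Rows listed at 0 numbered 45 in shKDM1A replicate 1 and 8 to 15 in the other 3 libraries, and TE rows held 12.8% of its total against 15.0% to 16.0% in those 3. POU5F1, a core pluripotency factor, stood at 148866 in this library and at 35710 in each of the other 5 shKDM1A, shMAFK and shLUC libraries. Both are among the few fixed values that the authors' normalization leaves in the upper range, so the size of this step is coarse. Of 22 markers of human pluripotent cells 21 were in the table, all of them above 0 in all 6 libraries, with a median level of 5500, 5420, 5367 and 4906 in the 4 knockdown libraries.

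**Figure D1:**
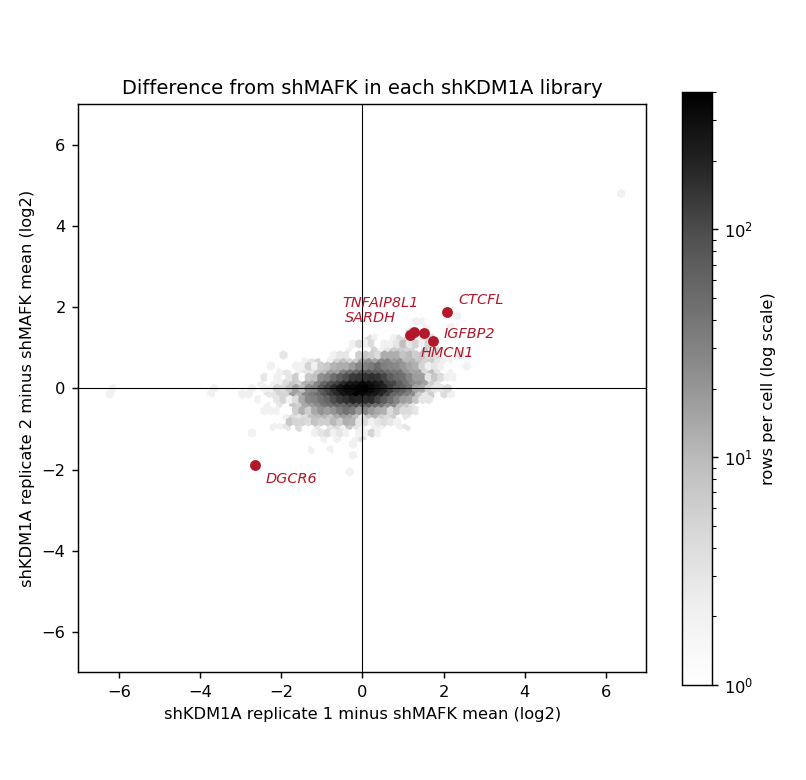
Difference of each row from the shMAFK mean in shKDM1A replicate 1 (x axis, log2) and in shKDM1A replicate 2 (y axis, log2), with shade for the number of rows and red points for the 6 rows that passed the test. The cloud is wider along the axis of replicate 1, where 859 rows were at least 2-fold higher and 945 lower, than along that of replicate 2, where 179 were higher and 125 lower.

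Each target was lower in its own knockdown than in the other. KDM1A stood at 3290 and 1879 in shKDM1A, 5500 and 5421 in shMAFK and 6344 and 5925 in shLUC. Both shKDM1A libraries lay below every other, and shKDM1A replicate 1 kept more of the transcript than replicate 2. The difference was -1.13 (SE 0.24) and did not pass the test (limma adjusted p = 0.164). MAFK stood at 327 and 312 in shKDM1A, 82 and 216 in shMAFK and 212 and 288 in shLUC. Of the shMAFK libraries only replicate 1 was below both control libraries, since replicate 2 lay between them. In shSMARCA4 MAFK stood at 278 and 210, the latter also below both control libraries. The difference of 1.26 (SE 0.39) did not pass (limma adjusted p = 0.294).

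6 rows passed the test, 5 of them higher and 1 lower in shKDM1A, which is 0.0406%, 0.0338% and 0.00676% of the rows in turn. CTCFL (BORIS), a paralog of the insulator protein CTCF that is normally confined to the male germline, had the smallest p. It stood at 1140 and 995 in shKDM1A, 252 and 284 in shMAFK and 96 and 82 in shLUC. The 3 groups formed steps with no overlap, with shMAFK between the control and shKDM1A. The difference was 1.99 (SE 0.19, limma adjusted p = 0.0369), and it was 2.09 in shKDM1A replicate 1 and 1.89 in replicate 2. CTCFL lies on chromosome 20 at chr20:57495966-57525652, minus strand (GENCODE 29, GRCh38). HMCN1 (chromosome 1), which encodes the extracellular matrix protein hemicentin, stood at 1259 and 1378 in shKDM1A, 587 and 526 in shMAFK and 710 and 660 in shLUC. Here shMAFK lay a little below both control libraries and shKDM1A further above them, with a difference of 1.24 (SE 0.15, limma adjusted p = 0.0453). HMCN1 was also above the control in shE2F6 (909 and 810) and stood higher in shSMARCA4 (1890 and 1884) than in shKDM1A.

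The remaining 3 rows higher in shKDM1A also had shLUC between the knockdowns, and shMAFK lay further from it than shKDM1A in all 3. SARDH (chromosome 9), the mitochondrial sarcosine dehydrogenase, stood at 348 and 313 in shKDM1A, 134 and 108 in shMAFK and 240 and 222 in shLUC, a difference of 1.45 (SE 0.17). TNFAIP8L1 (chromosome 19), a member of the TNFAIP8 family, stood at 285 and 308 in shKDM1A, 112 and 122 in shMAFK and 216 and 222 in shLUC, a difference of 1.33 (SE 0.16). IGFBP2 (chromosome 2), a secreted protein that binds insulin-like growth factors, stood at 61943 and 41812 in shKDM1A, 17675 and 19696 in shMAFK and 35716 in each shLUC library, a difference of 1.45 (SE 0.18). Each of the 3 had a limma adjusted p of 0.0453. IGFBP2 was as low in shE2F6 (17675 and 19696) and shSMARCA4 (16619 and 17675) as in shMAFK. TNFAIP8L1 stood at 176 and 162 in shE2F6, below the control, and at 394 and 342 in shSMARCA4, above shKDM1A. SARDH stood at 220 and 234 in shE2F6, overlapping the control, and at 264 and 262 in shSMARCA4, above it. The values of IGFBP2 lie in the upper range where the authors' normalization leaves only a few fixed values, so its steps are coarse.

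DGCR6 was the row that passed with a lower value in shKDM1A. The gene lies in the part of chromosome 22 deleted in DiGeorge syndrome, at chr22:18906028-18914238, plus strand. It stood at 128 and 220 in shKDM1A, 706 and 932 in shMAFK and 316 and 366 in shLUC, so that the knockdowns lay on opposite sides of the control. The difference was -2.27 (SE 0.28, limma adjusted p = 0.0453). DGCR6 also lay below both control libraries in shE2F6 (217 and 286) and shSMARCA4 (98 and 122), so shMAFK was the only knockdown above the control. PRODH, the mitochondrial proline dehydrogenase, is transcribed from the other strand and overlaps the end of DGCR6 by 1462 bases. It stood at 464 and 622 in shKDM1A, 1951 and 2618 in shMAFK and 844 and 987 in shLUC, the same order of groups, with a difference of -2.07 (SE 0.31) that did not pass (limma adjusted p = 0.0628). Whether the authors' counting used strand is not given in the sources used here, so reads of DGCR6 and PRODH cannot be told apart where they overlap. DGCR6L, a near-identical copy of DGCR6 on the same chromosome, stood at 768 and 758 in shKDM1A, 846 and 649 in shMAFK and 876 and 746 in shLUC, with all groups overlapping. It was looked up after the values of DGCR6 were seen.

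**Figure D2:**
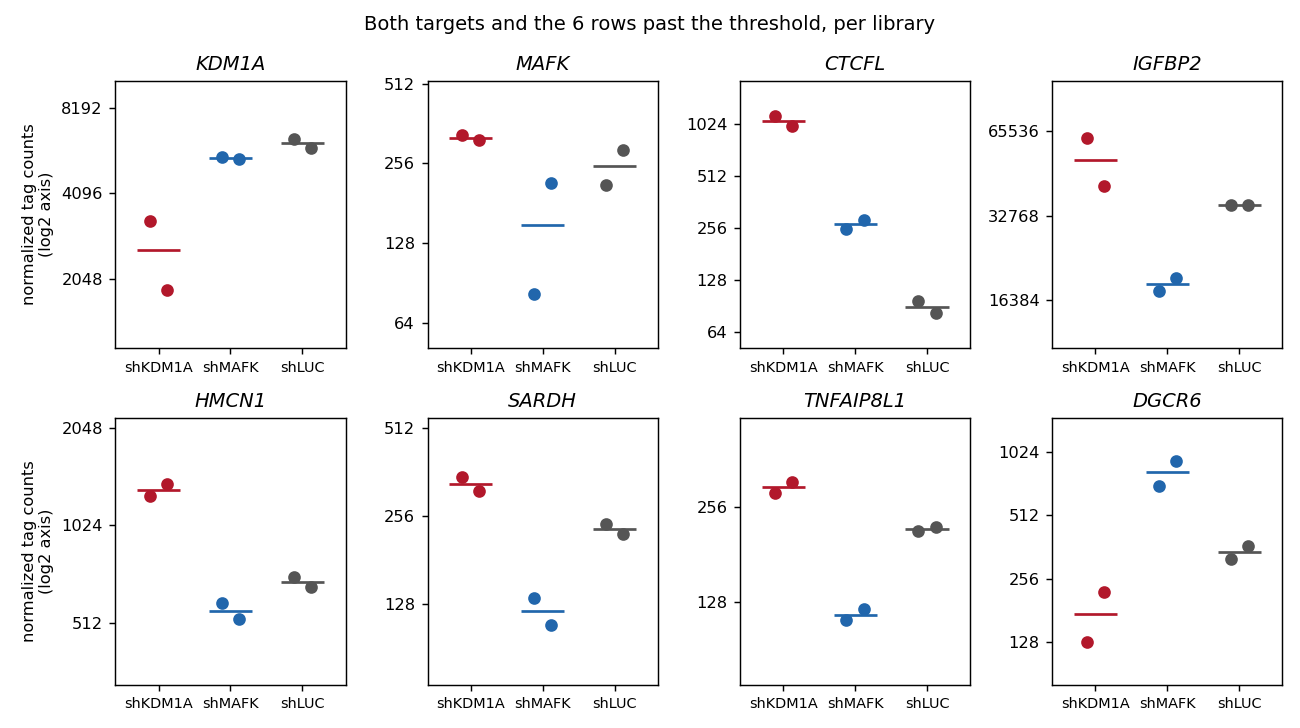
Normalized tag counts (log2 axis) of both targets and the 6 rows that passed the test, with 1 point per library and a line at the mean of each group. CTCFL forms 3 steps from shLUC (96 and 82) through shMAFK (252 and 284) to shKDM1A (1140 and 995), while SARDH, TNFAIP8L1, IGFBP2 and DGCR6 have shLUC between the knockdowns.

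The number of calls depended on single libraries. Without shKDM1A replicate 1 the test gave 12 rows, without replicate 2 it gave 3462, and it gave 1 without the first and 0 without the second shMAFK library (704 at an unadjusted p under 0.05, smallest adjusted p 0.511). With group weights, where each group has a relative weight that all rows share, limma gave 0 calls (992 at an unadjusted p under 0.05, smallest adjusted p 0.154). Fitted to these 4 libraries alone limma also gave 0 (828 unadjusted, smallest adjusted p 0.189). Without the shSMARCA4 libraries it gave 0 (1709 unadjusted, smallest adjusted p 0.0715). The values of the 6 rows kept their direction in each of these fits. CTCFL passed in 12 of 17 alternatives, with an adjusted p between 0.00112 and 0.65. SARDH and HMCN1 each passed in 11 of 17, DGCR6 and TNFAIP8L1 in 10 and IGFBP2 in 8. At an unadjusted p under 0.05 the comparison as reported held 1926 rows, 13.0% of all, of which 988 were higher (6.68%) and 938 lower (6.34%) in shKDM1A.

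The promoters of CTCFL and DGCR6 are shown because 1 was higher and 1 lower in shKDM1A and both were above shLUC in shMAFK. That of ATF5 is shown because ATF5 had its highest values in shMAFK. Each runs from 250 bases before to 50 bases after a RefSeq start site (GRCh38.p14), 5′ to 3′ on the strand of the gene. CTCFL and ATF5 have 3 such windows each, and the one nearest the GENCODE start of the gene is shown. Capitals mark a match to TGCTGA, the core motif of MAF proteins, on either strand.

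CTCFL (chr20:57525603-57525902, minus strand): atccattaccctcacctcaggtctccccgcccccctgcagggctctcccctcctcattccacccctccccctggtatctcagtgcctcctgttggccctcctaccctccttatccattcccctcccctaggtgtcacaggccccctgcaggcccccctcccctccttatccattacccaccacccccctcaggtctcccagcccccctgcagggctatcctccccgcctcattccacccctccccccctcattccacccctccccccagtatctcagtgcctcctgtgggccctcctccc

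DGCR6 (chr22:18906070-18906369, plus strand): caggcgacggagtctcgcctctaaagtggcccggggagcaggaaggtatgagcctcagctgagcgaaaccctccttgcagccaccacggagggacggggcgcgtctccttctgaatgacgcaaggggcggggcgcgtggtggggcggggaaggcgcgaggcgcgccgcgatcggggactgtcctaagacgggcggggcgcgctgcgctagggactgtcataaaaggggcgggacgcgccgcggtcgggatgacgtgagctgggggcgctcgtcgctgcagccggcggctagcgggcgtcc

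ATF5 (chr19:49928656-49928955, plus strand): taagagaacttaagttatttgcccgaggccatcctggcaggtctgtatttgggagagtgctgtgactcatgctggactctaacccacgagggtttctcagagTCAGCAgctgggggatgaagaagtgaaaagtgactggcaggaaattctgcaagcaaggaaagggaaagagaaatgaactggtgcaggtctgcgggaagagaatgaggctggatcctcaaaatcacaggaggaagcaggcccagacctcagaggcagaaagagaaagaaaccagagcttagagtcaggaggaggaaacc

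The ATF5 window holds TGCTGA on its minus strand, 148 bases before the start. The windows shown for CTCFL and DGCR6 hold none of the 4 motifs searched on both strands, which were TGCTGA, the small MAF and CNC site TGACNNNGC, the CCAAT box and the amino acid response element TGATGNAA. Of all 35116 RefSeq windows 17.3% hold TGCTGA, 13.3% TGACNNNGC, 34.6% CCAAT and 3.62% TGATGNAA. The rows that passed and had a window were 4 higher and 1 lower in shKDM1A, and of the 9 windows of the former 1 held CCAAT. HMCN1 had no window in the table of promoters.

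Below the threshold, the 6 rows with the smallest p that were higher in shKDM1A were P2RY1, LMO7, LGALS1, ATP2A3, ATP8B3 and RASL12. P2RY1, a receptor for ADP, stood at 2394 and 1983 in shKDM1A, 791 and 484 in shMAFK and 1418 and 1367 in shLUC, a difference of 1.81 (SE 0.24, limma adjusted p = 0.0571). LGALS1, which encodes the sugar-binding protein galectin-1, stood at 306 and 290 in shKDM1A, 92 and 108 in shMAFK and 106 and 116 in shLUC, a difference of 1.57 (SE 0.22). ATP8B3, a lipid flippase, stood at 188 and 362 in shKDM1A, 40 and 42 in shMAFK and 52 and 48 in shLUC, a difference of 2.64 (SE 0.38). In LGALS1 and ATP8B3 shMAFK lay close to the control and shKDM1A far above it, whereas in P2RY1 the control lay between the knockdowns. RASL12 (1.74), ATP2A3 (1.57), a calcium pump of the endoplasmic reticulum, and LMO7 (1.14) completed the set, and the 5 rows after P2RY1 shared a limma adjusted p of 0.0628.

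The 6 rows with the smallest p below the threshold that were lower in shKDM1A were SOX21, FZD2, FOXI3, MMP24, PRODH and CUZD1. SOX21, a transcription factor of neural progenitors, stood at 168 and 102 in shKDM1A, 728 and 912 in shMAFK and 454 and 392 in shLUC, a difference of -2.63 (SE 0.34, limma adjusted p = 0.0571). FOXI3, a forkhead factor of the ectoderm, stood at 30 and 86 in shKDM1A, 348 and 524 in shMAFK and 144 and 164 in shLUC, a difference of -3.04 (SE 0.43, limma adjusted p = 0.0628). MMP24, a membrane-bound metalloproteinase, stood at 278 and 432 in shKDM1A, 1095 and 1353 in shMAFK and 557 and 430 in shLUC, a difference of -1.81 (SE 0.27). SOX21 and FOXI3 had the control between shKDM1A and shMAFK, and MMP24 had shKDM1A overlapping the control. SOX21 was also below the control in shE2F6 (110 and 59) and shSMARCA4 (156 and 230). So was FOXI3, at 79 and 80 in shE2F6 and 58 and 74 in shSMARCA4. MMP24 stood just above the control in shE2F6 (559 and 605) and below it in shSMARCA4 (66 and 99). CUZD1 differed by -2.30 (SE 0.36, limma adjusted p = 0.0745). It was below the control in shE2F6 (136 and 148) and shSMARCA4 (56 and 58) as well as in shKDM1A. FZD2, a receptor for Wnt proteins, stood at 38 and 80 in shKDM1A, 224 and 258 in shMAFK and 780 and 755 in shLUC, so that both knockdowns were below the control and shKDM1A was the lower, by -2.10 (SE 0.29, limma adjusted p = 0.0628).

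Rows were then sorted by where shLUC lay, over the 67 rows whose nearest shKDM1A and shMAFK libraries were at least 2-fold apart and whose higher group had a mean of at least 50. Without the limit on the mean, 68 rows or 0.460% of all had that gap. 42 of the 67 were higher in shKDM1A and 25 lower, and all 67 were genes. Among the 42, the knockdowns lay on opposite sides of the control in 22, on the same side in 7, only shKDM1A was clear of the control in 6, only shMAFK in 6 and neither in 1. Among the 25, the respective counts were 9, 3, 5, 8 and 0. This describes rows chosen for their difference and carries no test. The following examples were chosen after the values were seen. COL6A2, a collagen VI chain, stood at 6930 and 6580 in shKDM1A, 2727 and 2922 in shMAFK and 3168 and 4004 in shLUC. IGFBP4, a second binder of insulin-like growth factors, stood at 7786 and 6078 in shKDM1A, 2870 and 2484 in shMAFK and 5028 and 4487 in shLUC. MAGEA4, a cancer-testis gene, stood at 354 and 358 in shKDM1A, 50 and 34 in shMAFK and 11 and 22 in shLUC, which is the order of groups of CTCFL. ACTB and HMGA1 were also among the 67, but their values lie on the coarse steps at the top of the scale. ACTB stood at 148866 in both shKDM1A and 61943 in both shMAFK libraries, neighbouring steps 1.26 apart on the log2 scale. HMGA1 stood at 41812 and 61943 in shKDM1A and 148866 in both shMAFK libraries.

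The mean of shKDM1A and shMAFK was then tested against shLUC, and 8 rows passed, 6 higher and 2 lower than the control. That is 0.0541%, 0.0406% and 0.0135% of the rows in turn (1329 rows or 8.99% at an unadjusted p under 0.05). A single knockdown can carry this contrast, so a row that passes need not differ from the control in both. The 4 knockdown libraries did not overlap with shLUC in 17.9% of all rows. ATF5, a bZIP factor of the integrated stress response, stood at 268 and 501 in shKDM1A, 1530 and 1454 in shMAFK and 74 and 116 in shLUC. It rose by 2.98 (SE 0.29, limma adjusted p = 0.0110), with shMAFK well above shKDM1A (direct difference -2.02, SE 0.33, limma adjusted p = 0.0797). CTCFL rose by 2.58 (SE 0.17, limma adjusted p = 0.00114), with shKDM1A the higher. MAL2, a membrane protein of transcytosis in epithelial cells, stood at 3698 and 2952 in shKDM1A, 4228 and 3966 in shMAFK and 1338 and 1502 in shLUC and rose by 1.37 (SE 0.14, limma adjusted p = 0.0155). All 4 knockdown libraries of MAL2 lay above both control libraries, and the direct difference of -0.31 (SE 0.16) was not distinguishable from 0 at this spread.

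LAMC3, the laminin gamma 3 chain, stood at 621 and 654 in shKDM1A, 363 and 344 in shMAFK and 224 and 213 in shLUC and rose by 1.12 (SE 0.12, limma adjusted p = 0.0155). EFHD1, a mitochondrial calcium-binding protein, stood at 245 and 242 in shKDM1A, 158 and 130 in shMAFK and 68 in each shLUC library and rose by 1.44 (SE 0.18, limma adjusted p = 0.0420). Both had shMAFK between the control and shKDM1A. FZD2 fell by 2.72 (SE 0.25, limma adjusted p = 0.0110). FOXP4, a forkhead repressor, stood at 60 and 62 in shKDM1A, 76 and 77 in shMAFK and 264 and 282 in shLUC and fell by 1.98 (SE 0.25, limma adjusted p = 0.0420). The knockdowns of FOXP4 differed from each other by -0.32 (SE 0.28). SMOX, spermine oxidase, was the eighth row and rose by 1.46 (SE 0.19, limma adjusted p = 0.0494). It lies outside the rule for named genes and was named after its values were seen. Taken singly against shLUC, CTCFL, FZD2, LAMC3 and EFHD1 passed only in shKDM1A (limma adjusted p = 0.000225, 0.00254, 0.00571 and 0.0313). ATF5 and MAL2 passed only in shMAFK (limma adjusted p = 0.00928 and 0.0432). FOXP4 passed in neither (limma adjusted p = 0.0680 in shKDM1A and 0.126 in shMAFK).

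Several of these rows lay on the same side of shLUC in the knockdowns of E2F6 and SMARCA4 too. MAL2 stood at 2768 in both shE2F6 libraries and 2650 and 2331 in shSMARCA4. LAMC3 stood at 509 and 516 in shE2F6 and 502 and 537 in shSMARCA4, between the values of shMAFK and shKDM1A. EFHD1 stood at 112 and 129 in shE2F6 and 106 and 118 in shSMARCA4, and FZD2 at 422 and 418 in shE2F6 and 333 and 300 in shSMARCA4. CTCFL also lay above the control, at 151 and 131 in shE2F6 and 100 and 126 in shSMARCA4, but below both shMAFK libraries. FOXP4 was below the control in shSMARCA4 (72 and 110) and above it in shE2F6 (300 and 495). ATF5 overlapped the control in shE2F6 (164 and 112) and stood at 141 and 116 in shSMARCA4. Whether these differences are larger in shKDM1A and shMAFK than in the other knockdowns was not tested.

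The 6 rows lower than shLUC with the smallest p below the threshold in this contrast began with FASN, the fatty acid synthase. It stood at 30774 in each shKDM1A library, 25026 and 23459 in shMAFK and 41812 in each shLUC library, a difference of -0.61 (SE 0.08, limma adjusted p = 0.0599), on the coarse steps of the upper range. PHC2 (-1.48), a Polycomb protein, RIPOR2 (-0.84), the membrane protease ST14 (-1.25) and MYORG (-1.86) followed, and PDGFD (-0.91), a platelet-derived growth factor, came next. Without shKDM1A replicate 2 the contrast gave 1125 calls, without shKDM1A replicate 1 it gave 19, without either shMAFK library it gave 2, without shLUC replicate 1 it gave 1 and without shLUC replicate 2 it gave 15. CTCFL passed in all 19 alternatives run for this contrast. ATF5 and FZD2 each did not pass in 4 of 19, MAL2, LAMC3 and FOXP4 in 5 and EFHD1 in 7.

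**Figure D3:**
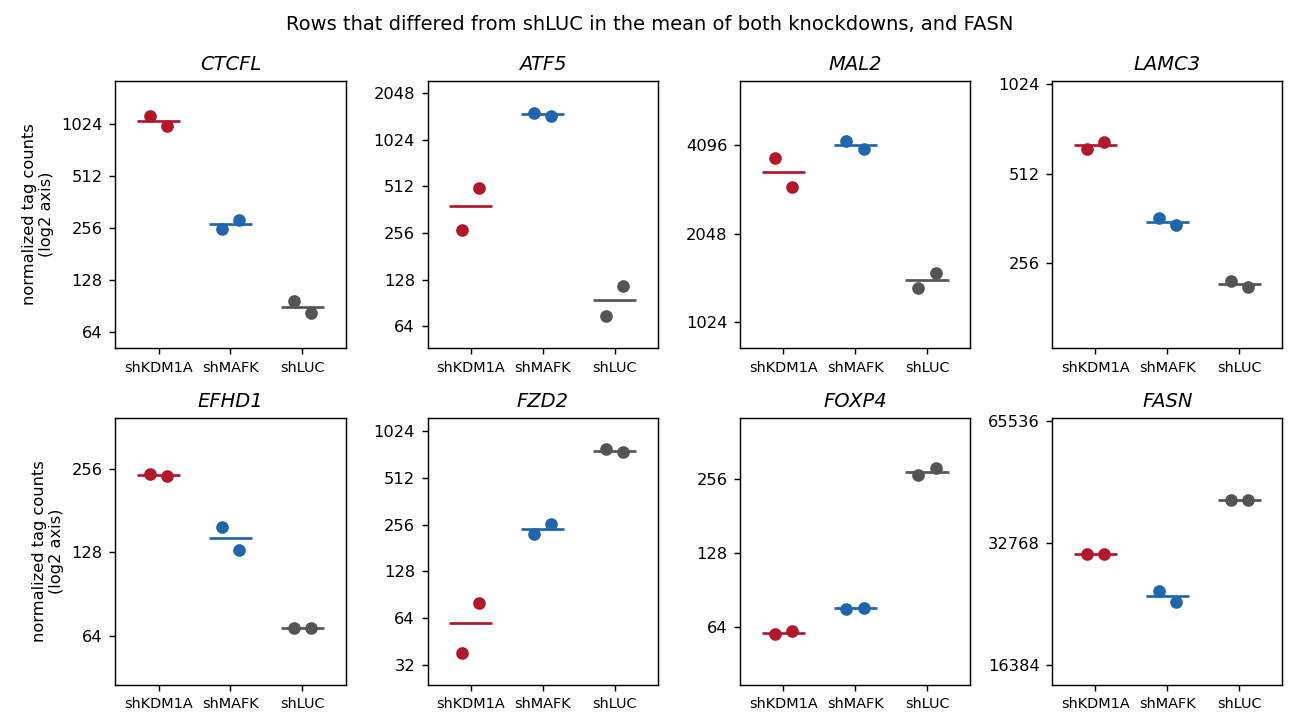
Normalized tag counts (log2 axis) of 7 rows that passed the test of the mean of both knockdowns against shLUC and of FASN, which did not pass, with 1 point per library and a line at each group mean. In MAL2 and FOXP4 the knockdowns sit close together, in ATF5 shMAFK is the highest group, and in CTCFL, LAMC3 and EFHD1 shKDM1A is.

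Gene lists were then read as counts beside the background, over the members present in the table. CTCFL was the only list member that passed the direct test, so all list members below other than CTCFL did not pass, and the members named were chosen after their values were seen. Over all rows 18.7% lay higher in shKDM1A without overlap and 20.5% lower, and the median difference was -0.02.

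Of 20 genes of the CoREST complex and its partners 17 were in the table, 5 higher without overlap, 5 lower without overlap and 7 overlapping. The lower rows include the target KDM1A. The scaffold RCOR1 stood at 1432 and 1472 in shKDM1A and 1173 and 1046 in shMAFK (difference 0.39, SE 0.19), and the deacetylase HDAC2 at 7917 and 7440 in shKDM1A and 8496 and 8374 in shMAFK (-0.14, SE 0.15). KDM1B, the paralog of KDM1A, stood at 250 and 276 in shKDM1A and 307 and 326 in shMAFK (-0.27, SE 0.15). Apart from KDM1A itself the differences of this list lay between -0.40 and 0.39. Of 10 MAF and CNC factors 8 were in the table, 2 higher and 2 lower without overlap, with the target MAFK among the higher. NFE2L3, a CNC partner of the small MAF proteins, stood at 18607 and 6012 in shKDM1A, 4612 and 2870 in shMAFK and 6647 and 6408 in shLUC (1.54, SE 0.45), with the high value in shKDM1A replicate 1. Of 26 antioxidant targets of NRF2 23 were in the table, 6 higher and 1 lower without overlap, with a median difference of 0.00. NQO1, the usual reporter gene of this pathway, stood at 530 and 450 in shKDM1A, 435 and 311 in shMAFK and 408 and 356 in shLUC.

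The p53 list, genes that p53 induces for arrest, repair and apoptosis, lay lower in shKDM1A than in shMAFK. All 24 genes were in the table, and 16 were lower without overlap and 0 higher (66.7%, against 20.5% of all rows lower). The median difference was -0.56, and it was -0.55 in shKDM1A replicate 1 and -0.48 in replicate 2. Against the shared control the median was -0.30 for shKDM1A and 0.34 for shMAFK. CDKN1A (p21), an inhibitor of cyclin-dependent kinases, stood at 162 and 136 in shKDM1A, 360 and 1170 in shMAFK and 235 and 148 in shLUC (-2.12, SE 0.51, limma adjusted p = 0.202). Its high value came from shMAFK replicate 2. SPATA18 stood at 77 and 80 in shKDM1A, 165 and 162 in shMAFK and 112 and 126 in shLUC (-1.05, SE 0.29), and ZMAT3 at 256 and 410 in shKDM1A, 554 and 672 in shMAFK and 472 and 550 in shLUC (-0.91, SE 0.22). MDM2, the ligase that degrades p53, stood at 1468 and 1586 in shKDM1A, 1662 and 2331 in shMAFK and 1446 and 1461 in shLUC. The median of the list came to -0.79 against shMAFK replicate 2 alone and to -0.35 against shMAFK replicate 1 alone.

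The sterol list, the enzymes of cholesterol synthesis with their regulators, lay higher in shKDM1A than in shMAFK. All 24 genes were in the table, and 16 were higher without overlap and 0 lower (66.7%, against 18.7% of all rows higher). The median difference was 0.44, at 0.40 and 0.43 in the 2 shKDM1A libraries. Against the mean of the control libraries the median was -0.29 for shKDM1A and -0.64 for shMAFK. The control libraries differed for this list, with a median level of 1833.5 in shLUC replicate 1 and 1318 in replicate 2. The median levels of shKDM1A, 1143 and 1632, lay on both sides of shLUC replicate 2, and those of shMAFK, 959.5 and 853, below both control libraries. SQLE, squalene epoxidase, stood at 2628 and 2576 in shKDM1A, 1680 and 1476 in shMAFK and 3755 and 2462 in shLUC (0.72, SE 0.21). INSIG1, which holds the pathway's regulator in the endoplasmic reticulum, stood at 797 and 645 in shKDM1A, 419 and 460 in shMAFK and 1124 and 848 in shLUC. In SQLE shKDM1A lay within the range of the control, and in INSIG1 both knockdowns lay below it.

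Metallothioneins, small proteins that bind zinc and copper, were listed with the zinc exporter SLC30A1 and the metal sensor MTF1. 8 of 11 were in the table, 7 higher in shKDM1A without overlap and 0 lower. The median difference was 0.97, at 1.00 and 0.88 in the 2 shKDM1A libraries. MT2A stood at 1501 and 1173 in shKDM1A, 760 and 309 in shMAFK and 245 and 362 in shLUC (1.45, SE 0.73, limma adjusted p = 0.423). MT1X stood at 4390 and 4958 in shKDM1A, 3348 and 1930 in shMAFK and 2061 and 2758 in shLUC (0.88, SE 0.26). MTF1 overlapped between the groups, at 374 and 423 in shKDM1A and 381 and 414 in shMAFK. The shMAFK libraries differed from each other for every metallothionein listed, with replicate 1 the higher, and the median difference was 1.24 against shMAFK replicate 2 alone and 0.58 against replicate 1 alone. Metallothionein genes are near-identical copies, so the share of reads given to each is uncertain and they are not independent of each other.

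**Figure D4:**
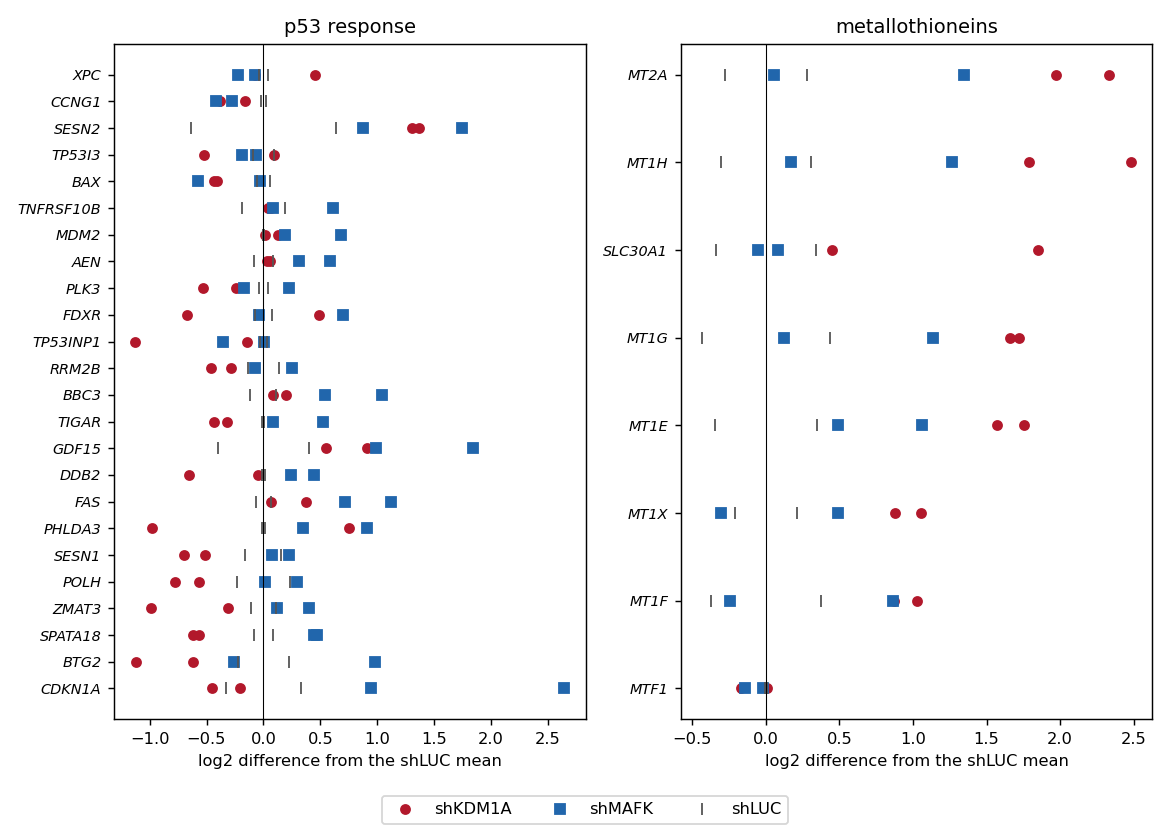
Each gene of the p53 and metallothionein lists as log2 difference from the shLUC mean (x axis), with 1 mark per library (circles shKDM1A, squares shMAFK, bars shLUC), sorted by the difference between the knockdowns. The shKDM1A marks lie left of the shMAFK marks without overlap for 16 of 24 p53 genes and right of them for 7 of 8 genes of the metallothionein list.

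Of 26 genes of glycolysis and the hypoxia response 24 were in the table, 10 higher and 2 lower without overlap, with a median difference of 0.23. SLC16A3, the lactate exporter MCT4, stood at 856 and 1229 in shKDM1A, 206 and 278 in shMAFK and 1018 and 628 in shLUC (2.09, SE 0.40, limma adjusted p = 0.133). PFKFB4, which makes an activator of glycolysis, stood at 502 and 514 in shKDM1A, 166 and 246 in shMAFK and 664 and 440 in shLUC (1.33, SE 0.31). PGK1, phosphoglycerate kinase, stood at 25021 and 27326 in shKDM1A, 11635 and 10950 in shMAFK and 23453 and 18607 in shLUC (1.21, SE 0.19, limma adjusted p = 0.0672). In SLC16A3 and PFKFB4 shKDM1A overlapped the control and shMAFK lay below both. The median was 0.40 in shKDM1A replicate 2 and 0.09 in replicate 1. GAPDH and ALDOA overlapped between the groups.

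Of 32 genes of the integrated stress response driven by ATF4, 31 were in the table, 2 higher and 9 lower in shKDM1A without overlap. Both knockdowns had a median above the control, 0.77 for shKDM1A and 0.97 for shMAFK, and the direct median was -0.21. ASNS, asparagine synthetase, stood at 3474 and 4808 in shKDM1A, 7784 and 6490 in shMAFK and 1809 and 3506 in shLUC (-0.80, SE 0.31). TRIB3, a pseudokinase induced by ATF4, stood at 443 and 480 in shKDM1A, 1022 and 540 in shMAFK and 96 and 224 in shLUC. ATF4 itself overlapped, at 7040 and 6077 in shKDM1A and 6647 and 6077 in shMAFK. The control libraries differed for this list, with CHAC1 at 142 in shLUC replicate 1 and 1436 in replicate 2, and the list's median level was 1237 and 2112 in them.

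Many markers of lineages that differentiating H1 cultures could hold were absent from the table. Of 18 mesoderm and primitive streak genes 9 were in the table, 5 higher in shKDM1A without overlap and 0 lower, with a median difference of 0.88. Against the control both medians were negative, -0.53 for shKDM1A and -1.07 for shMAFK. Their summed level was 7948 and 6067 in shKDM1A, 3626 and 2675 in shMAFK and 5832 and 4939 in shLUC, and most of it was KDR, a receptor for VEGF, at 7440 and 5788 in shKDM1A, 3429 and 2512 in shMAFK and 5420 and 4612 in shLUC (1.16, SE 0.19, limma adjusted p = 0.0847). EOMES, a defining factor of the streak, was at 0 and 20 in shKDM1A, 0 and 6 in shMAFK and 14 and 34 in shLUC. NODAL stood at 256 and 100 in shKDM1A, 76 and 54 in shMAFK and 138 and 91 in shLUC. LEFTY2, its antagonist, stood at 48 and 11 in shKDM1A, 4 and 2 in shMAFK and 48 and 24 in shLUC. For NODAL and LEFTY2 replicate 1 was the higher shKDM1A library, and shKDM1A overlapped the control. LEFTY2 has a near-identical copy, LEFTY1.

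Of 20 neuroectoderm genes 11 were in the table, 2 higher and 4 lower without overlap, with a median of -0.28. OTX2, a factor of anterior neural fate that is also active in pluripotent cells, stood at 148 and 280 in shKDM1A, 686 and 1384 in shMAFK and 674 and 734 in shLUC (-2.25, SE 0.40, limma adjusted p = 0.110). ZIC2 stood at 3756 and 7211 in shKDM1A, 7442 and 9058 in shMAFK and 8497 and 9298 in shLUC, so that shMAFK overlapped the control. The 2 higher genes were POU3F1 and SIX6. POU3F1 stood at 988 and 1096 in shKDM1A, 628 and 699 in shMAFK and 781 and 982 in shLUC (0.65, SE 0.26). SIX6 was low throughout, at 7 and 11 in shKDM1A and 6 and 0 in shMAFK. The list's median was -0.76 in shKDM1A replicate 1 and -0.06 in replicate 2. Of 18 trophoblast and amnion genes 5 were in the table and 1, TFAP2C, was lower without overlap, at 16 and 53 in shKDM1A, 99 and 138 in shMAFK and 60 and 59 in shLUC. Of 16 endoderm genes 7 were in the table, with 2 higher. These were KRT18, at 6647 and 6578 in shKDM1A and 5923 and 3850 in shMAFK, and CPE, at 1234 and 630 in shKDM1A and 564 and 536 in shMAFK. APOE (51691 and 27330 in shKDM1A) and KRT8 (11997 and 10349) were abundant and overlapped between the knockdowns. FOXA2 stood at 1 and 0 in shKDM1A and 0 in both shMAFK libraries. The part of such cells in the differences above was not tested, and fewer cells of a type and less RNA per cell cannot be told apart in these bulk libraries.

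Of the 21 pluripotency markers 4 were higher in shKDM1A and 6 lower without overlap, with a median of 0.00. PRDM14, a repressor that guards the pluripotent state, stood at 291 and 616 in shKDM1A, 1048 and 1384 in shMAFK and 930 and 706 in shLUC (-1.51, SE 0.49). LIN28B, an inhibitor of let-7 processing, stood at 1760 and 3190 in shKDM1A and 4196 and 4646 in shMAFK (-0.90, SE 0.27). DPPA2 stood at 651 and 532 in shKDM1A, 278 and 234 in shMAFK and 316 and 252 in shLUC (1.20, SE 0.18, limma adjusted p = 0.0628). SOX2 stood at 6490 and 6343 in shKDM1A and 7576 and 7680 in shMAFK (-0.25, SE 0.13). NANOG stood at 1704 and 2923 in shKDM1A and 2576 and 1640 in shMAFK, so that its groups overlapped.

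Of 33 germline and cancer-testis genes 13 were in the table, 5 higher in shKDM1A without overlap, CTCFL among them, and 2 lower. DAZL, an RNA-binding protein of germ cells, stood at 85 and 48 in shKDM1A, 126 and 142 in shMAFK and 78 and 76 in shLUC, so that unlike CTCFL it was lower in shKDM1A than in shMAFK, while shKDM1A overlapped the control. The meiotic cohesin STAG3 overlapped between the knockdowns. Of 24 genes of FGF signalling and its feedback 23 were in the table, 6 higher and 4 lower. EGR1, an immediate early gene, stood at 42 and 244 in shKDM1A, 419 and 960 in shMAFK and 141 and 182 in shLUC, whereas DUSP5, a phosphatase that limits ERK, stood at 1063 and 728 in shKDM1A, 408 and 278 in shMAFK and 773 and 640 in shLUC (1.38, SE 0.26). The receptor FGFR3 stood at 304 and 191 in shKDM1A, 634 and 1259 in shMAFK and 336 and 424 in shLUC.

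The other lists had medians between -0.06 and 0.40. Of 30 histone methylation enzymes all were in the table, 14 higher and 6 lower without overlap, with the target KDM1A among the lower. Both directions together made 66.7%, against 39.2% of all rows. Their median was 0.12, and the demethylase KDM4B stood at 2381 and 2071 in shKDM1A and 1392 and 1487 in shMAFK. Of 30 genes of TGF-beta and BMP signalling 25 were in the table, 9 higher and 5 lower, among them the BMP target ID3 at 3873 and 2740 in shKDM1A and 1922 and 1482 in shMAFK (0.95, SE 0.20). Wnt receptors and feedback genes (31 of 36 in the table) split 6 and 6, and laminins and integrins (26 of 28) 6 and 1. Tight junction genes (28 of 29) split 7 and 4, neuronal genes under REST (21 of 30) 3 and 3, and interferon genes (22 of 32) 1 and 2. CTCF and cohesin genes (17 of 18) split 1, which was CTCFL, and 6, DNA replication genes (28 of 28) 2 and 5, and naive or 8-cell genes (4 of 19) 1 and 0.

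**Figure D5:**
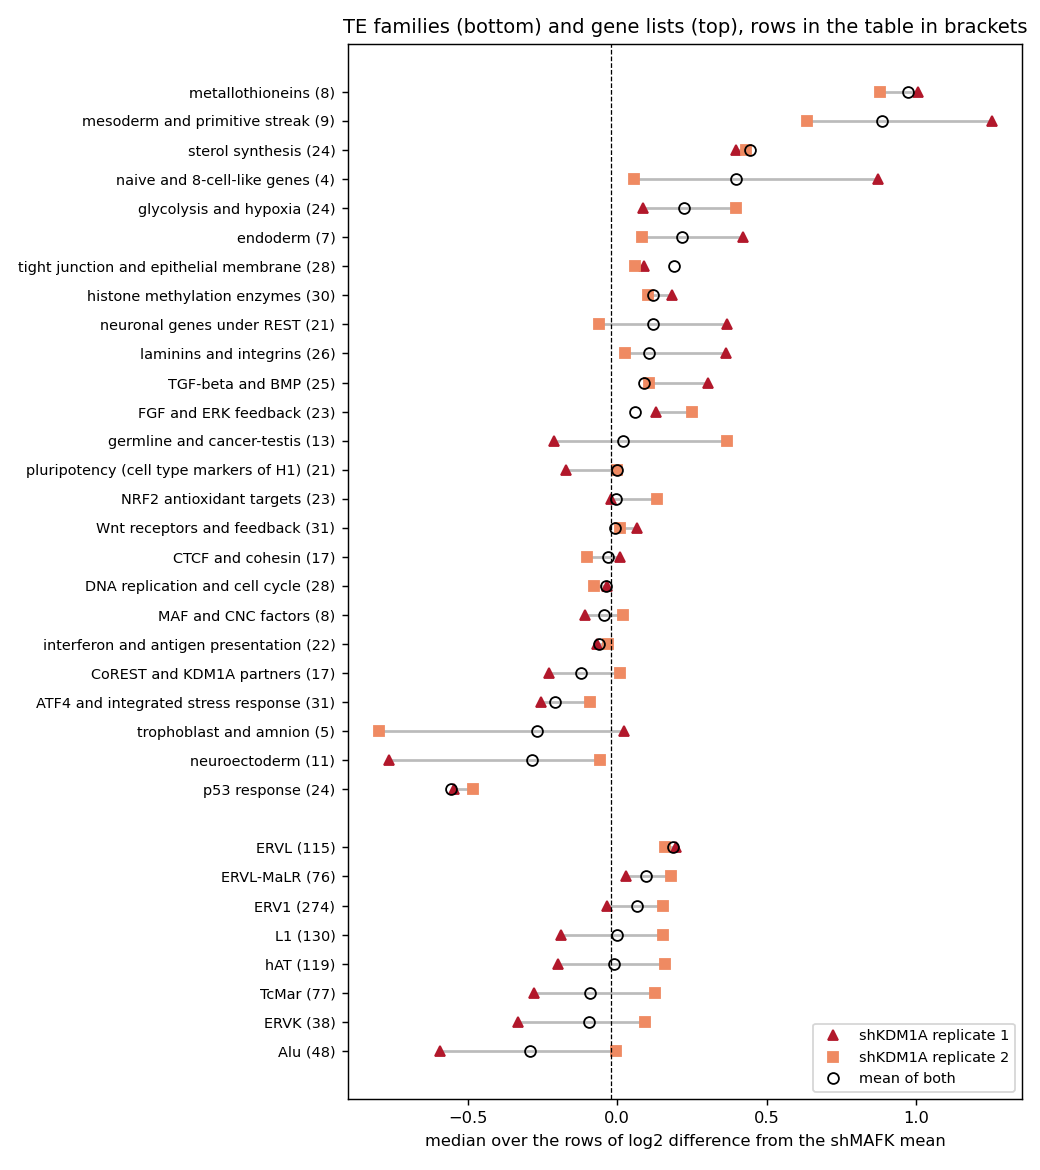
Median log2 difference from the shMAFK mean over the rows of each TE family with at least 30 rows (bottom) and each gene list (top), for shKDM1A replicate 1 (triangles), replicate 2 (squares) and the mean of both (open circles), with a dashed line at the median of all rows (-0.02). The p53, sterol and metallothionein lists and the ERVL family have both libraries close together, whereas Alu rows stand at -0.59 in replicate 1 and 0.00 in replicate 2.

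TE rows, each the summed signal of a repeat subfamily, held no call. Of 973, 237 were higher in shKDM1A without overlap and 67 lower (31.2% in all, against 39.2% of all rows). Over all rows 18.7% were higher and 20.5% lower without overlap. At an unadjusted p under 0.05, 41 TE rows were higher and 10 lower, against 6.68% and 6.34% of all rows. The median difference of TE rows was 0.02. The ERVL family, endogenous retroviruses of mammals, had 52 of 115 rows higher and 6 lower, with a median of 0.19 that was 0.20 in shKDM1A replicate 1 and 0.16 in replicate 2. ERVL-MaLR rows had 26 of 76 higher and 1 lower, with a median of 0.10. Alu rows, short repeats that sit inside many genes, had 0 of 48 higher and 12 lower, with a median of -0.29 that came from replicate 1 (-0.59) and not from replicate 2 (0.00). L1 rows had 24 of 130 higher and 1 lower, with a median of 0.00. ERV1 rows had 75 of 274 higher and 24 lower, and ERVK rows 3 of 38 higher and 6 lower. In either direction, 50.4% of ERVL rows did not overlap, against 39.2% of all rows. The share was below that of all rows in ERV1 (36.1%), ERVL-MaLR (35.5%), Alu (25.0%), ERVK (23.7%) and L1 (19.2%).

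The 3 TE rows with the smallest p were AluSq2, HERVK-int and L1M2. AluSq2 (SINE:Alu:AluSq2) stood at 25021 and 30768 in shKDM1A, 41804 in both shMAFK libraries and 30768 and 35710 in shLUC, a difference of -0.59 (SE 0.13, limma adjusted p = 0.175). HERVK-int (LTR:ERVK:HERVK-int), the internal part of the youngest human endogenous retroviruses, stood at 1076 and 3474 in shKDM1A, 6012 and 8496 in shMAFK and 3780 in both shLUC libraries, a difference of -1.89 (SE 0.48, limma adjusted p = 0.215). The low value came from shKDM1A replicate 1, and shKDM1A replicate 2 lay just below the control. L1M2 (LINE:L1:L1M2) stood at 61943 and 51691 in shKDM1A, 35716 and 30774 in shMAFK and 41812 and 51691 in shLUC, a difference of 0.77 (SE 0.21, limma adjusted p = 0.232). AluSq2 and L1M2 lie on the coarse steps of the upper range. How reads were divided between TE rows and the genes around them is not given in the sources used here.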

How the data were processed

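RNA-seq values of 10 H1 libraries in 5 groups of 2 were used, with groups and replicate numbers from the sample titles. The deposited values are scores: whole numbers that the authors normalized, read as normalized tag counts from the abbreviated unit, not raw counts. The normalization step is not given in the sources used here. Totals lay between 22836548 and 22855295 in every library and 10 rows per library shared the maximum of 148866. Depth is therefore unknown, and no interval that needs it is given. STAR, STARsolo and hg38 are named in the submitters' processing notes, with no role or order. 0 columns of libraries were left unmapped.

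Values were analysed as log2(value + 1) with limma 3.58.1 in R 4.3.3 (lmFit, then eBayes with the trend option, two-sided tests). 1 fit of all 10 libraries gave 5 residual degrees of freedom. A minimum row mean of 10 removed 0 rows, and p-values were Benjamini-Hochberg adjusted over 14785 rows with a threshold of 0.05. Fold changes on this scale are understated for low rows. The script was tested on simulated data.

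Named genes were both targets; called rows whose higher group reached a mean of 50, up to 12 per direction; list members past the threshold; where few passed, the 6 rows per direction with the smallest p; 3 TE rows; and 5 rows per direction of both knockdowns against shLUC. The members of the 25 gene lists and these rules were chosen with earlier results of these data known. Same-numbered replicates of shKDM1A and shMAFK did not deviate together (r = 0.06 over rows), so replicates were not paired. Gene positions are from GENCODE 29 (GRCh38), promoters from RefSeq (GRCh38.p14), which matched 10495 gene rows by symbol. The comparisons with shLUC share the same 2 control libraries. Alternatives covered the pseudocount, filter, scaling, spread, libraries fitted, replicate block and each library left out.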

Additional observations from a re-analysis of the deposited data

Results flagged for a closer look

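6 rows were noted because the effects of the knockdowns against the shared control differed from each other by the direct limma test (adjusted p of 0.0369 for CTCFL and 0.0453 for the other 5, n = 2 per group). The differences, shKDM1A minus shMAFK on the log2 scale, were 1.99 for CTCFL, 1.45 for SARDH, 1.45 for IGFBP2, 1.33 for TNFAIP8L1, 1.24 for HMCN1 and -2.27 for DGCR6. In SARDH, IGFBP2, TNFAIP8L1, HMCN1 and DGCR6 every shKDM1A library lay on 1 side of both shLUC libraries and every shMAFK library on the other. In CTCFL both knockdowns lay above shLUC.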

How the results depend on the processing

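Of 36 results for named rows, 0 changed direction under any alternative, and 14 of 25 list medians kept their sign. The 6 rows that passed between the knockdowns became 11 with a pseudocount of 10 and 10 after full quantile normalization, and 0 with group weights, in the fit of the groups compared alone and without the shSMARCA4 libraries. The cause was not tested, though the last 2 fits hold fewer samples. Leaving out 1 library gave 0 to 3462 rows. With each left-out library the lone sample of its group is assumed to vary like the other groups. The 8 rows of both knockdowns against shLUC became 14 with group weights, 2 in the fit of the groups compared alone and 15 with no mean-variance trend, and 1 to 1125 when 1 library was left out. With the replicate number as a block 9 rows passed between the knockdowns, 4 of them among the 6, and 7 passed against shLUC. Over 10 pairs of groups the correlation of the replicate differences was 0.34 between shE2F6 and shSMARCA4 and from -0.05 to 0.11 in the other pairs. Whether shE2F6 and shSMARCA4 share a replicate structure was not tested.

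The split of calls moved with scaling: 5 higher and 1 lower as reported, 6 and 4 after quantile normalization and 6 and 2 after median of ratios rescaling. Depth is unknown, and 2 libraries per group with an uneven shKDM1A pair limit the precision of all values.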
